A study of Mesocricetus auratus with 6 samples.

Results

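The proteasome genes of golden hamster uterus were compared between implantation sites and interimplantation sites on day 5 of pregnancy. RNA was hybridised to an Affymetrix mouse array, 3 arrays of implantation sites (the uterine wall around an attached blastocyst) and 3 of interimplantation sites (the wall between blastocysts, labelled as without embryo). The animals were untreated pregnant Syrian golden hamsters (Mesocricetus auratus), with strain and age not stated. The design text states that the RNA sets came from 3 different animals, without saying which implantation and interimplantation arrays shared an animal, and the same RNA on a human array was not analysed here. Whole uterine wall was taken, so more cells of a type and more RNA per cell cannot be told apart in any value below.

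The members were all genes whose mouse symbol begins with Psm, a letter from a to g and a digit, on probe sets annotated to a single symbol. This gave 48 of 12393 genes, on 85 probe sets, and for each gene the probe set with the highest mean over the 6 arrays was used. The mean level thus chose the probe set and supports nothing else. The symbols of 47 of the 48 also occur in the RefSeq annotation of the hamster genome. The symbol rule also takes Psmc3ip, a factor of meiotic recombination, and Psme3ip1, a binding partner of Psme3, which are named for binding a proteasome protein and are given apart. The label therefore holds for 46 of the 48 genes. Psme2, the partner of Psme1, shares its probe set with another symbol and was not a member.

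The proteasome is the large protease of cytosol and nucleus that degrades proteins tagged with ubiquitin. Its 20S core is a barrel of alpha rings (Psma genes), which gate the entrance, and beta rings (Psmb genes), which hold the proteolytic sites in Psmb5, Psmb6 and Psmb7. The 19S cap recognises the tagged protein, removes the ubiquitin and feeds the chain into the core with a ring of ATPases (Psmc genes) and a set of non-ATPase subunits (Psmd genes). Psme genes encode other caps, Psmf1 an inhibitor and Psmg genes chaperones of core assembly, and interferon makes cells replace the standard catalytic subunits by Psmb8, Psmb9 and Psmb10. Embryo attachment in rodents is followed by division of uterine stromal cells and their transformation into decidua.

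Values are log2 signals made by the authors with RMA (robust multi-array averaging), and differences are implantation minus interimplantation, so 1 unit would be a doubling if the log base is 2, as RMA usually gives. RMA makes the arrays' distributions alike, so every difference is relative to most other genes. Mouse probes on hamster RNA can lose signal through mismatches, so levels of different genes are not ranked. A gene was called at an adjusted p under 0.05 in limma, with Benjamini-Hochberg adjustment over all 22626 probe sets, and the number of arrays limits the precision. Over all probe sets, the lowest correlation between arrays of a group was 0.987, and pairs from different groups ranged from 0.985 to 0.989.

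At the implantation site 10 of the 48 genes rose, 0 fell and 38 did not pass. Among all 12393 genes 1.36% were called higher and 1.18% lower. Psmd1, the largest subunit of the 19S cap, rose 1.75-fold, the core subunit Psmb3 1.67-fold, the ATPase Psmc4 1.59-fold, and the catalytic subunits Psmb7 and Psmb6 1.55-fold and 1.49-fold. Psma7 and Psma3 of the alpha ring, Psmd2 and Psmd12 of the cap and the nuclear activator Psme3 were the others that rose, by 1.34-fold to 1.52-fold. Of the 48 differences 36 were positive, where 43.8% of all genes were positive, and their median was 0.22, against −0.020 over all genes. In 21 members all implantation arrays exceeded all interimplantation arrays (8.02% of all genes did), and in 2 the reverse held (12.1%). At an unadjusted p under 0.05, 21 members were higher (6.14% of all genes) and 1 was lower (8.67%). At an adjusted p under 0.1, 12 were higher (2.12% of all genes) and 1 was lower (1.86%), and 6 were higher by the rule of p under 0.05 before adjustment with a fold of 1.5 or more (0.758%).

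Most of the positive differences belonged to genes of the complete particle. Of the 31 genes for the standard subunits of core and cap, 29 were positive and 9 rose, with a median of 0.29. Of the 15 other genes, for tissue-specific and immune subunits, activators, the inhibitor and assembly factors, 5 were positive and 1 (Psme3) rose, with a median of −0.032. This grouping follows the known structure but was made after the values were seen, and the difference between the groupings was not tested. The forest plot shows every member.

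**Figure D1:**
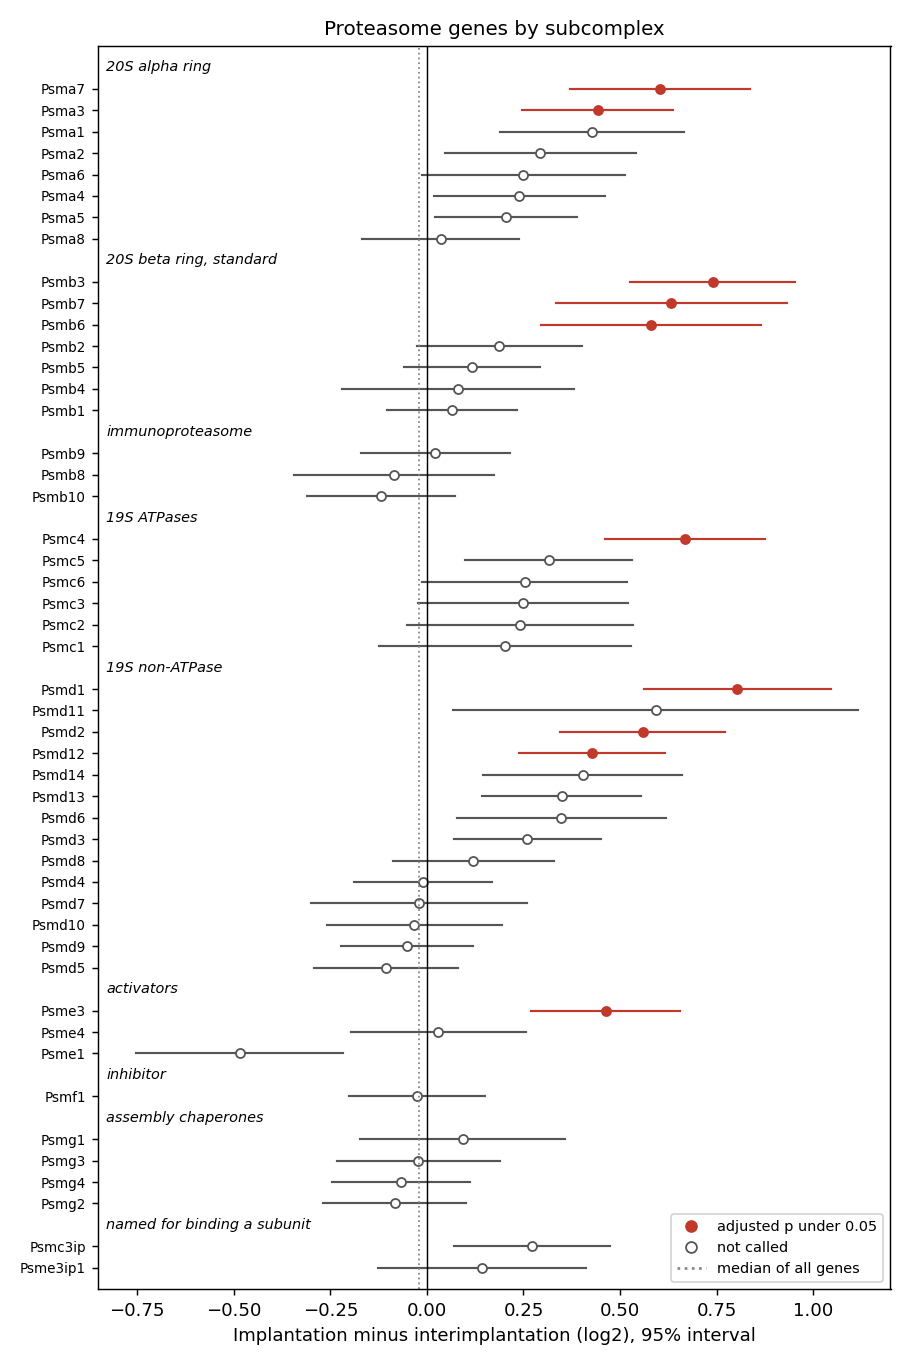
Implantation minus interimplantation difference (log2) of each of the 48 proteasome genes with its 95% interval from limma, grouped by subcomplex; filled red points have an adjusted p under 0.05 and the dotted line is the median of all genes (−0.020). The called genes run from 0.43 to 0.80, and Psme1 (−0.48) is the lowest.

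The result changed when single arrays were left out and when the hybridisation controls were used in the model or for scaling. These controls are bacterial and phage transcripts spiked into every sample. The mean of the 18 control probe sets was 6.64 ± 0.17 on the implantation arrays and 7.03 ± 0.27 on the interimplantation arrays (SD, n = 3 each). Implantation array 2 had the lowest control level (6.45) and the highest value in 20 of the 48 members. Interimplantation array 1 had the highest control level (7.27) and the lowest value in 24 members. Implantation arrays 1 and 3 had control levels of 6.70 and 6.77. They held the highest value in 10 and 3 members and the lowest in 4 and 3. Interimplantation arrays 2 and 3 had control levels of 6.75 and 7.08. They held the highest value in 8 and 4 members and the lowest in 5 and 10. A link between control level and member values was not tested. How often each array was the highest or lowest over all genes is not given here, so these counts have no baseline. With the controls' mean as a covariate in limma, 0 members were called (0.331% of all genes were called higher). At p under 0.05 before adjustment 12 were higher and 2 lower. The share of all genes at that threshold in this model is not given here, so these counts have no baseline. The adjusted p of the 10 genes ran from 0.0542 to 0.476, and the median was 0.088, against −0.029 over all genes. The control level differed between the groups, so this model cannot fully tell control level and site apart, and its added term lowers the precision. With every array scaled to the controls 17 were called (3.63% of all genes were called higher), and the median of 0.62 stood against 0.38 over all genes. The gap between the members' median and that of all genes was 0.24 in the deposited values. It was 0.12 with the covariate and 0.14 without interimplantation array 1. The scaling shifts all genes of an array alike, so it leaves the gap at 0.24 by construction. Without implantation array 1, 2 or 3 the members called higher numbered 5, 4 and 5, and without interimplantation array 1, 2 or 3 they numbered 11, 10 and 6. The share of all genes called higher moved with them, at 0.573%, 0.831% and 0.726% without implantation array 1, 2 or 3 and 1.56%, 1.17% and 1.02% without interimplantation array 1, 2 or 3.

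The median deviation of the members from their own 6-array means gives the same by array. It was 0.092, 0.14 and 0.078 on implantation arrays 1, 2 and 3, against −0.19, −0.029 and −0.072 on interimplantation arrays 1, 2 and 3. The groups did not overlap, and interimplantation array 1 was the farthest from 0. Over all genes the same median lay between −0.019 and 0.0020 on the implantation arrays and between −0.0041 and 0.017 on the interimplantation arrays.

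**Figure D2:**
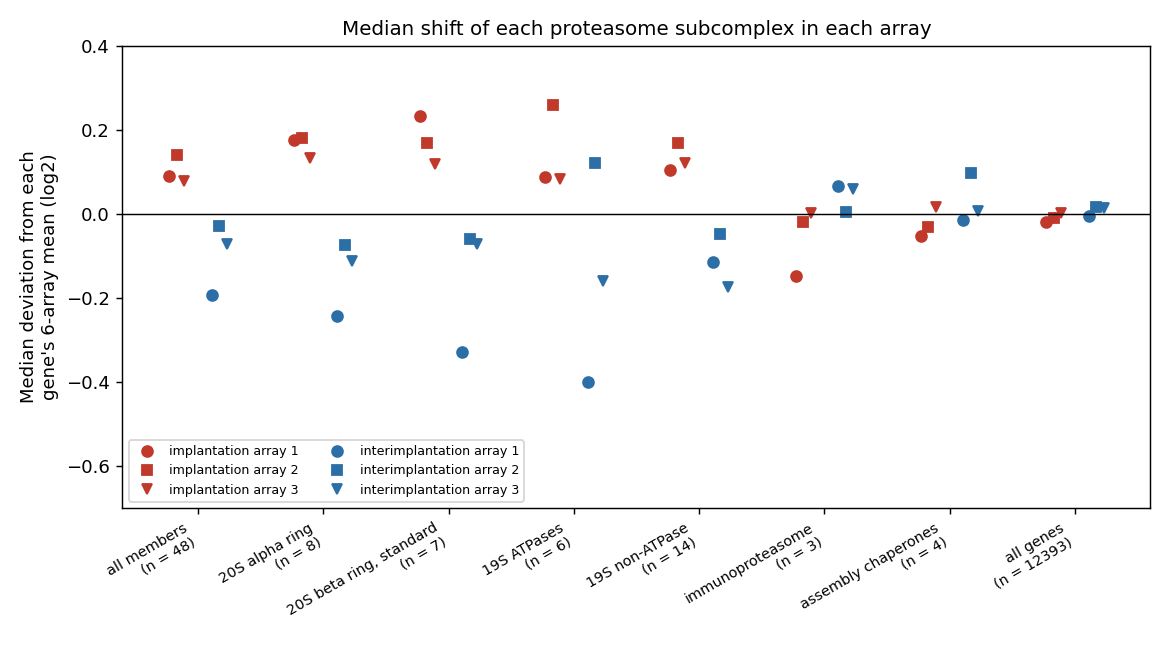
Median deviation (log2) of the genes of each subcomplex from their own mean over the 6 arrays, for each implantation (red) and interimplantation (blue) array, with all genes at the right. The implantation arrays lie above the interimplantation arrays in the alpha ring, the standard beta ring and the 19S non-ATPase genes, and the groups overlap in the 19S ATPases, where interimplantation array 2 lies at 0.12.

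The alpha ring genes, whose products open and close the channel of the core, were all positive. Of 8 genes, 2 rose, 6 were higher at p under 0.05 before adjustment, and the median was 0.27. Psma7 had 5.54, 5.88 and 5.59 at implantation sites, against 4.93, 5.10 and 5.17 at interimplantation sites. All implantation arrays were above all interimplantation arrays (difference 0.60, SE 0.11, adjusted p = 0.0112), and the other probe set of Psma7 was also called (0.41, adjusted p = 0.0354). Psma3 had 3.13, 3.19 and 3.18 at implantation sites, against 2.67, 2.62 and 2.88 at interimplantation sites. The groups were apart (0.44, SE 0.090, adjusted p = 0.0253), but its signal was close to that of the Bacillus controls, probe sets without a hamster target (median 2.68, highest 5.79). Of the 48 members 20 had a mean below the brightest of these controls, among them the called Psma7, Psma3, Psmb6 and Psme3. The call of Psma3 was lost when any 1 implantation array or interimplantation array 2 was left out.

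Psma1 just missed the threshold. It had 5.83, 5.80 and 5.68 at implantation sites, against 5.35, 5.56 and 5.12 at interimplantation sites (0.43, adjusted p = 0.0708). The groups did not overlap, and it was called in 5 of 15 alternatives. Psma2 (0.29), Psma6 (0.25), Psma4 (0.24) and Psma5 (0.21) followed without passing (adjusted p 0.257 to 0.386), with the groups apart in Psma6 and Psma5. Psma8, the testis form that takes the place of Psma7, was the lowest of the ring at 0.036, with 3.95, 4.06 and 4.19 at implantation sites against 4.15, 3.96 and 3.98 at interimplantation sites. Its groups overlapped, and its mean of 4.05 was below the brightest Bacillus control.

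The standard beta ring genes were also all positive, and 3 of 7 rose, with a median of 0.19. Psmb3, a structural subunit, had 7.69, 7.41 and 7.39 at implantation sites, against 6.67, 6.81 and 6.78 at interimplantation sites. It had the smallest adjusted p of all members (difference 0.74, SE 0.098, adjusted p = 0.00243). The groups were well apart, and its second probe set differed by 0.59, not called (adjusted p = 0.0831). Psmb7, which carries the trypsin-like site, had 8.77, 9.03 and 8.61 at implantation sites, against 7.90, 8.43 and 8.19 at interimplantation sites. Psmb6, which carries the caspase-like site, had 6.04, 6.11 and 6.03 at implantation sites, against 5.13, 5.71 and 5.60 at interimplantation sites. Both were higher on all implantation arrays (differences 0.63 and 0.58, SE 0.14 and 0.13, adjusted p = 0.0350 and 0.0402), and in both interimplantation array 1 was the lowest. Both calls were lost when any 1 implantation array or interimplantation array 3 was left out.

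Psmb5, which carries the chymotrypsin-like site, was not called. It had 7.02, 7.07 and 7.00 at implantation sites, against 6.93, 6.84 and 6.97 at interimplantation sites. The groups were apart, but the difference of 0.12 (95% interval −0.058 to 0.29) did not pass (adjusted p = 0.580). Psmb2 was at 0.19, Psmb4 at 0.080, and Psmb1 was the lowest of the ring at 0.065, with 6.13, 6.16 and 6.15 at implantation sites against 6.09, 6.09 and 6.08 at interimplantation sites. Psmb1 thus varied by 0.015 or less (SD) within either group, and its groups were apart without a call (adjusted p = 0.777). Its SE was 0.077, since limma draws the variance of each probe set towards that of all probe sets.

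**Figure D3:**
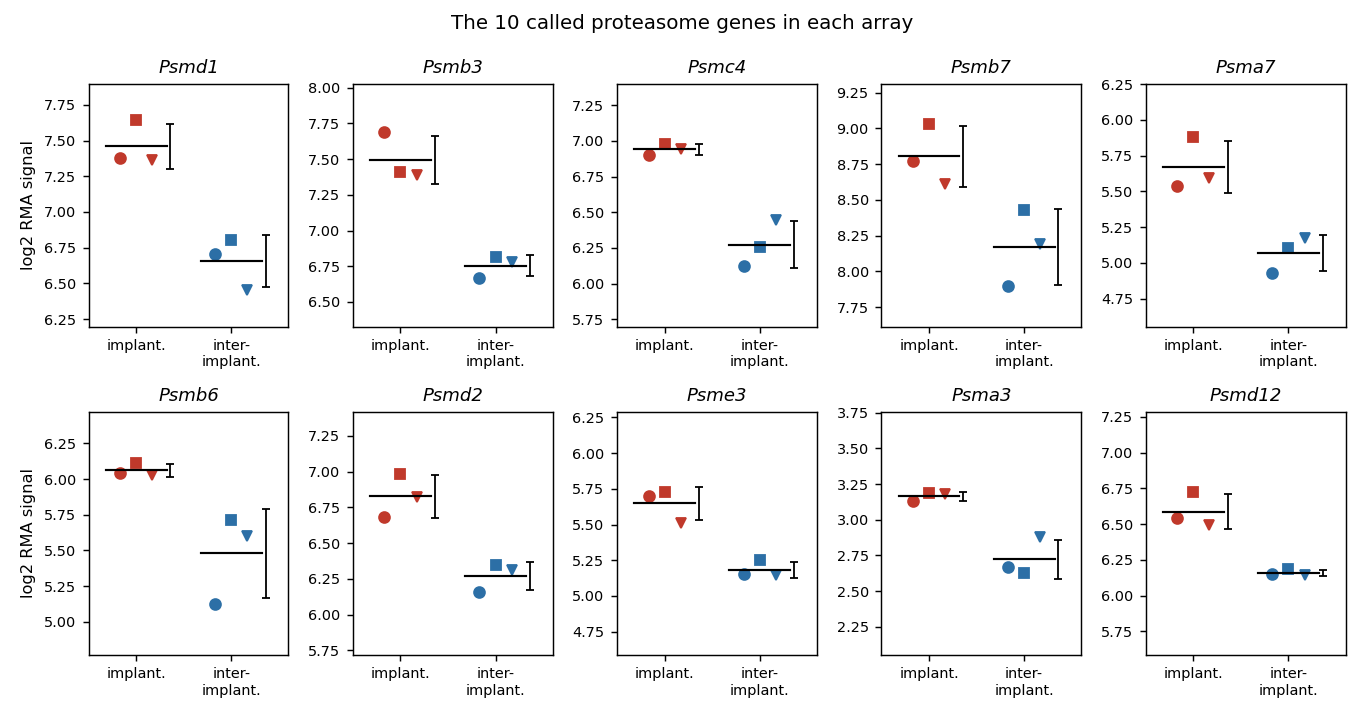
Log2 RMA signal of the 10 called genes in each array (circle, array 1; square, array 2; triangle, array 3), with the group mean as a line and the SD (n = 3) as a bar; each panel spans the same range of 1.7 units, so heights compare between panels but levels do not. In all 10 genes the implantation arrays (red) lie above the interimplantation arrays (blue).

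None of the 3 immunoproteasome genes was called by limma, none had a p under 0.05 before adjustment, and their median was −0.084. Psmb8, the inducible counterpart of Psmb5, had 5.20, 5.21 and 5.52 at implantation sites, against 5.42, 5.18 and 5.58 at interimplantation sites. Psmb9, the counterpart of Psmb6, had 5.69, 5.75 and 5.70 at implantation sites, against 5.54, 5.76 and 5.76 at interimplantation sites. The groups overlapped in both, with differences of −0.084 (95% interval −0.34 to 0.18) and 0.022 (−0.17 to 0.21). Psmb10, the counterpart of Psmb7, had 5.71, 5.84 and 5.85 at implantation sites, against 6.03, 5.86 and 5.86 at interimplantation sites. Its implantation arrays were all lower, and the difference of −0.12 (−0.31 to 0.072) did not pass (adjusted p = 0.614). The means of Psmb8 and Psmb9 lay below the brightest Bacillus control. None of the 3 was called under any alternative, but the scaling to the controls turned Psmb8 and Psmb10 to 0.31 and 0.28, below the 0.38 of all genes.

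Within each array, the immune subunit was set against the standard one it replaces, each as its deviation from its own mean. Psmb9 minus Psmb6 was −0.29, −0.30 and −0.25 on implantation arrays 1 to 3, against 0.49, 0.12 and 0.23 on interimplantation arrays 1 to 3. Psmb10 minus Psmb7 was −0.43, −0.56 and −0.13 on the implantation arrays, against 0.77, 0.066 and 0.30 on the interimplantation arrays. Both quantities were lower on all implantation arrays, by 0.56 and 0.75. Most of each gap came from Psmb6 (0.58) and Psmb7 (0.63), against 0.022 for Psmb9 and −0.12 for Psmb10. The 2 gaps thus largely restate the calls of Psmb6 and Psmb7. Psmb8 minus Psmb5 overlapped, at −0.20, −0.24 and 0.14 on the implantation arrays, against 0.11, −0.045 and 0.23 on the interimplantation arrays. The differences in these quantities were not tested, and a shift common to an array, as in the scaling to the controls, leaves them as they are.

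**Figure D4:**
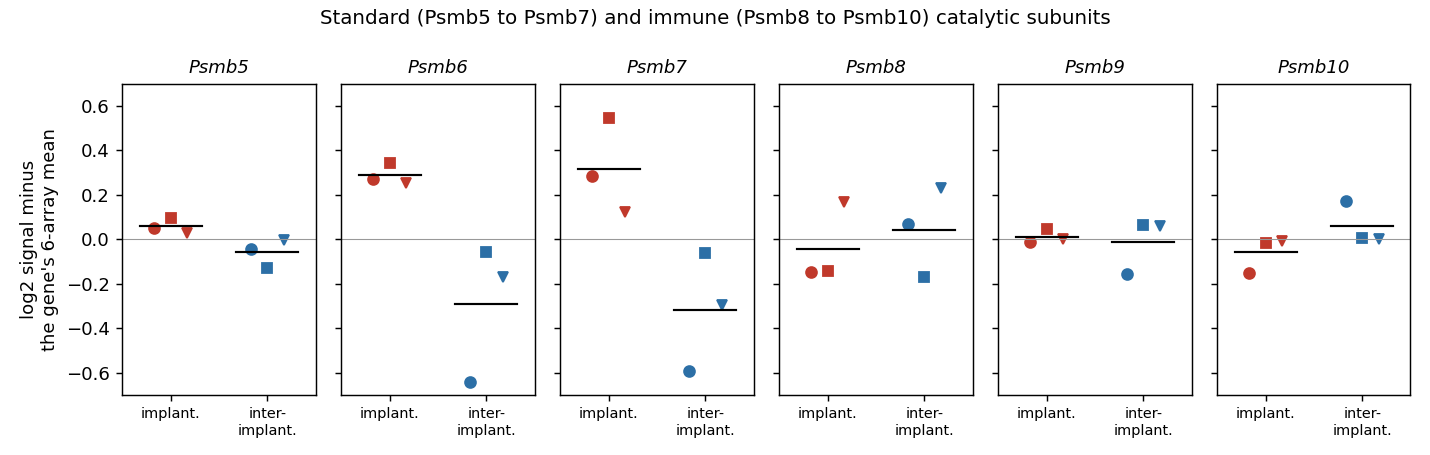
Log2 signal minus the gene's mean over the 6 arrays for the standard (Psmb5, Psmb6, Psmb7) and immune (Psmb8, Psmb9, Psmb10) catalytic subunits (circle, array 1; square, array 2; triangle, array 3; line, group mean). Psmb6 and Psmb7 are higher on the implantation arrays (red) than on the interimplantation arrays (blue), while Psmb8 and Psmb9 overlap between the groups.

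All 6 ATPases of the cap, which unfold the substrate, were positive, with a median of 0.25, and 1 rose. Psmc4 had 6.90, 6.98 and 6.94 at implantation sites, against 6.12, 6.26 and 6.44 at interimplantation sites. The gap exceeded the spread in either group (0.67, SE 0.095, adjusted p = 0.00324), and its other probe set, much dimmer, was at 0.18 without a call. Psmc5 was next at 0.31, with the groups apart (adjusted p = 0.152). Psmc6, Psmc3 and Psmc2 lay between 0.24 and 0.25, and Psmc1 was the lowest at 0.20, with 4.37, 4.65 and 4.43 at implantation sites against 3.99, 4.68 and 4.17 at interimplantation sites. In these 4 the groups overlapped. The covariate model gave a median of −0.083 for the 6.

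Of the 14 Psmd genes 3 rose and 9 were positive, with a median of 0.30. Psmd1, a scaffold of the base of the cap to which ubiquitin receptors bind, had 7.38, 7.64 and 7.36 at implantation sites, against 6.71, 6.80 and 6.46 at interimplantation sites. It had the largest difference of all members (0.80, SE 0.11, adjusted p = 0.00288), and 99.7% of all genes had a lower difference. Psmd2, the other large scaffold of the base, had 6.68, 6.98 and 6.82 at implantation sites, against 6.16, 6.35 and 6.31 at interimplantation sites (0.56, SE 0.098, adjusted p = 0.0106), and lost its call without implantation array 2 or 3. Both scaffolds thus rose together with the ATPase Psmc4 of the same base. Psmd12, of the lid that removes ubiquitin, had 6.54, 6.72 and 6.50 at implantation sites, against 6.15, 6.18 and 6.15 at interimplantation sites (0.43, SE 0.087, adjusted p = 0.0253). The interimplantation arrays were nearly equal in Psmd12 (SD 0.021), and the call was lost when any 1 implantation array or interimplantation array 2 or 3 was left out.

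Of the 8 lid genes 7 were positive, with a median of 0.35. Psmd14, the metalloprotease that cuts off ubiquitin, had 6.26, 6.50 and 6.78 at implantation sites, against 6.19, 6.08 and 6.05 at interimplantation sites. The groups were apart, the implantation arrays had an SD of 0.26, and the difference of 0.40 did not pass (adjusted p = 0.121). Psmd13 and Psmd6 (both 0.35) and Psmd3 (0.26) also had groups that did not overlap and did not pass (adjusted p 0.0892 to 0.210). Psmd8 (0.12) and Psmd7 (−0.020), the partner of Psmd14, had overlapping groups. The dimmer probe sets of Psmd7 were at 0.015 and 0.21, the latter with the groups apart and no call. The ubiquitin receptor Psmd4 was at −0.010 by its brightest probe set, while its other probe sets were at 0.29 and 0.24.

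Psmd11, a lid subunit, depended on the probe set. Its brightest had 8.51, 8.60 and 8.49 at implantation sites, against 8.61, 7.96 and 7.25 at interimplantation sites. Interimplantation array 1 was the highest of all 6, so that the difference of 0.59 had an SE of 0.24 and no call (adjusted p = 0.285), and without that array it was 0.93 and called (adjusted p = 0.00558). Of its 5 other probe sets 2 were called (0.56 and 0.41, adjusted p = 0.00330 and 0.0399), and 3 lay between −0.20 and −0.031.

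The assembly factors were not called in any subcomplex. Psmd10, Psmd9 and Psmd5, chaperones that hold parts of the base until the ring of ATPases is closed, were at −0.032, −0.051 and −0.11, and their groups overlapped. The mean of Psmd10 was 2.82, near the Bacillus controls' median of 2.68, so its small difference says little. Psmd5, the lowest Psmd gene, had 6.19, 6.06 and 6.15 at implantation sites, against 6.28, 6.30 and 6.14 at interimplantation sites. Of the chaperones of the core, Psmg1 had 5.35, 4.87 and 5.11 at implantation sites, against 4.85, 5.10 and 5.09 at interimplantation sites (0.093, 95% interval −0.17 to 0.36). Its partner Psmg2 had 4.72, 4.84 and 4.68 at implantation sites, against 4.82, 4.89 and 4.77 at interimplantation sites (−0.084, −0.27 to 0.10). The groups overlapped in both. Psmg3 had 3.83, 3.83 and 3.91 at implantation sites, against 3.91, 4.03 and 3.69 at interimplantation sites (−0.022, −0.23 to 0.19). Psmg4, which pairs with Psmg3, had 6.34, 6.39 and 6.40 at implantation sites, against 6.35, 6.49 and 6.48 at interimplantation sites (−0.066, −0.24 to 0.11). These overlapped as well, and Psmg1, Psmg2 and Psmg3 lay below the brightest Bacillus control.

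Of the 3 activators 1 rose, and the lowest difference of all members was also among them. Psme3, which forms a cap in the nucleus that works without ubiquitin, had 5.70, 5.73 and 5.51 at implantation sites, against 5.16, 5.25 and 5.15 at interimplantation sites (0.46, SE 0.088, adjusted p = 0.0172). The groups were apart, but its other probe sets were at −0.0050 and 0.23, and the call was lost with their mean, without implantation array 1 or 2 and without interimplantation array 3. Psme1, of the interferon-induced cap that works with the immunoproteasome, had 4.95, 4.60 and 4.87 at implantation sites, against 5.07, 5.27 and 5.52 at interimplantation sites. It was lower on all implantation arrays (−0.48, SE 0.12, adjusted p = 0.0693), and 0.807% of all genes had a lower difference. Psme1 did not pass and was called lower in 3 of 15 alternatives (array weights, without dim probe sets and without interimplantation array 1), and with scaling to the controls it was at −0.087. Psme4, a cap known from testis and DNA repair, had 5.39, 5.48 and 5.20 at implantation sites, against 5.16, 5.35 and 5.46 at interimplantation sites (0.030, adjusted p = 0.935). The inhibitor Psmf1 had 7.12, 7.16 and 7.24 at implantation sites, against 7.24, 7.15 and 7.20 at interimplantation sites (−0.025, 95% interval −0.20 to 0.15). Both overlapped between the groups. The means of Psme1 (5.05), Psme3 (5.42) and Psme4 (5.34) lay below the brightest Bacillus control.

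Of the binding partners that the symbol rule took in, Psmc3ip was at 0.27 with the groups apart (adjusted p = 0.185) and Psme3ip1 at 0.14 with overlap (adjusted p = 0.681).

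The choice of probe set mattered. Of the 85 probe sets 57 were positive, 13 were called higher and 0 lower, where 1.26% and 1.05% of all tested probe sets were. Of the 21 genes with more than 1 probe set, 14 had probe sets of both signs, and in 16 the brightest had the highest difference. Averaging all probe sets of each gene gave a median of 0.15. It left 8 genes called higher, without Psmb6 and Psme3 (1.01% of all genes were called higher). Psmb6 has 1 probe set, which averaging leaves unchanged, so its call was lost through the changed set of values tested beside it. With only the probe sets that match a single transcript by their name, 40 members were left, 8 were called higher (1.04% of all genes were) and the median was 0.17.

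**Figure D5:**
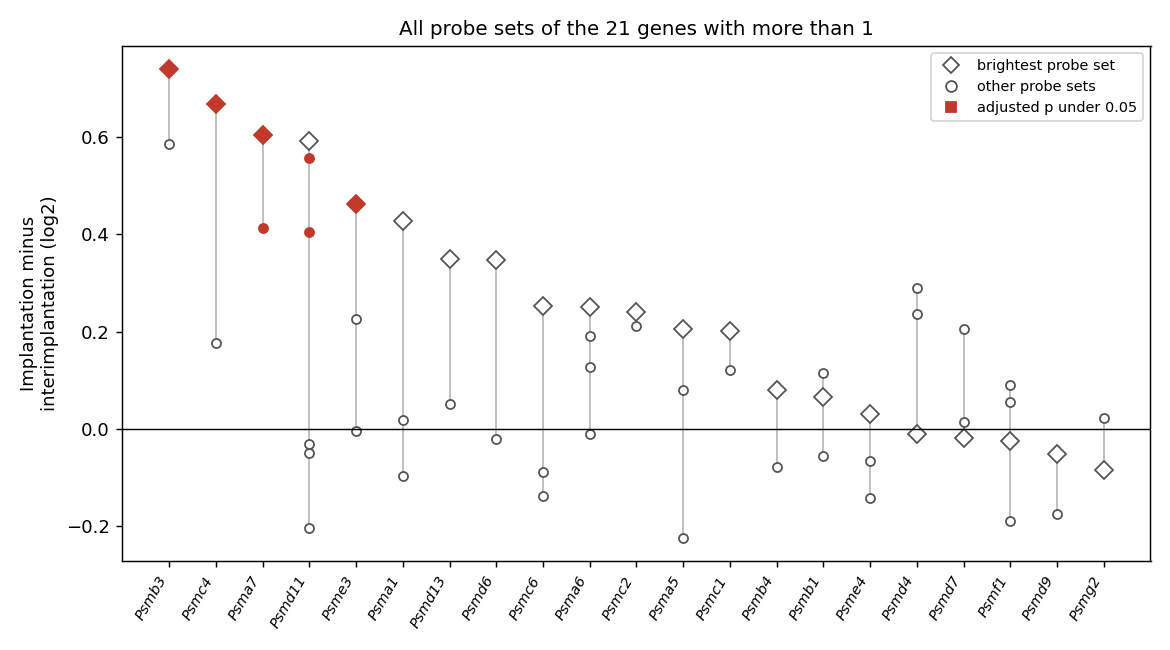
Implantation minus interimplantation difference (log2) of every probe set of the 21 proteasome genes with more than 1; diamonds are the brightest probe set of a gene, circles the others, and red marks an adjusted p under 0.05. Psma7 and Psmd11 have 2 called probe sets each, and the other probe sets of Psmd11 reach down to −0.20.

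Other genes of the pathway came from fixed lists. For the counts in these lists, 1.36% of all genes were called higher and 1.18% lower. At p under 0.05 before adjustment 6.14% of all genes were higher and 8.67% lower, so 1 gene in a short list is near these last shares. Among 27 measured ubiquitin-activating and -conjugating enzymes 3 rose and 1 fell, with a median of −0.014. Ube2k, which builds ubiquitin chains, had 5.37, 5.63 and 5.39 at implantation sites, against 4.60, 4.93 and 4.72 at interimplantation sites (0.71, adjusted p = 0.00416). Ube2c and Ube2s, which serve the anaphase-promoting complex in mitosis, rose by 0.99 and 0.65 (adjusted p = 0.00441 and 0.0234). Ube2b, a conjugating enzyme of DNA repair and the histones, had 6.68, 6.68 and 6.72 at implantation sites, against 7.16, 7.48 and 7.23 at interimplantation sites, and fell by 0.60 (adjusted p = 0.00607). Of 11 measured ubiquitin receptors and partners of Vcp, 2 rose and 0 fell, with a median of 0.040. Vcp, the ATPase that extracts tagged proteins from membranes and complexes, had 8.18, 7.99 and 8.16 at implantation sites, against 7.51, 7.37 and 7.26 at interimplantation sites (0.73, adjusted p = 0.00197). The shuttle Rad23b rose by 0.35 (adjusted p = 0.0427), while the Vcp cofactors Ufd1 and Nploc4 were at 0.036 and −0.11 without a call.

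None of 9 measured proteasome partners with other names was called by limma, with a median of −0.054, and 1 was higher and 2 lower at p under 0.05 before adjustment. The core chaperone Pomp was at 0.17, the lid subunit Sem1 at 0.18, and the deubiquitinases Uchl5 and Usp14 were at 0.39 (adjusted p = 0.0526) and −0.054. The proteasome adaptor Ecpas was at −0.39 and the proteasome phosphatase Ublcp1 at −0.29 (adjusted p = 0.102 and 0.101). None of 13 measured regulators of proteasome genes was called by limma either, with 1 higher and 4 lower at p under 0.05 before adjustment. Nfe2l1, which in mouse and human cells raises proteasome transcription when the proteasome is short, was at −0.060 (adjusted p = 0.823) and Nfe2l2, a factor of the oxidative stress response, at 0.059 (adjusted p = 0.846). The 4 ubiquitin genes had no probe set with a single symbol.

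Marker genes were read beside these values. Of all genes 1.36% were called higher and 1.18% lower, and 6.14% were higher and 8.67% lower at p under 0.05 before adjustment. A single marker at the unadjusted threshold is near these last shares. Of 16 measured genes of antigen presentation and the interferon response 0 were called by limma (0 higher and 3 lower at p under 0.05 before adjustment), with a median of −0.12 and 5 positive. Their summed linear signal was 611 to 634 on the implantation arrays and 674 to 697 on the interimplantation arrays. Of 17 measured leukocyte markers 0 were called by limma (1 higher and 1 lower at p under 0.05 before adjustment), with a median of −0.020 and summed signals of 655 to 690 on the implantation arrays and 660 to 710 on the interimplantation arrays. Of 11 measured epithelial markers 2 fell (Cldn7 and Wnt7b), 4 were lower at p under 0.05 before adjustment and 10 were negative (median −0.11), with summed signals of 604 to 648 on the implantation arrays and 748 to 829 on the interimplantation arrays. Of 8 measured smooth muscle markers 2 fell (Actg2 at −1.74 and Tagln at −1.26), 5 were lower at p under 0.05 before adjustment and 1 was positive (median −0.31), with summed signals of 373 to 489 on the implantation arrays and 722 to 1166 on the interimplantation arrays. Of 13 stromal and decidual markers 1 rose (Wnt4), 2 were higher and 1 lower at p under 0.05 before adjustment, and 6 were positive (median −0.011). Of these markers 7 exceeded the brightest Bacillus control. Their summed signals were 2664 to 3054 on the implantation arrays and 2705 to 3098 on the interimplantation arrays. None of 8 endothelial and none of 8 trophoblast or embryo markers was called by limma (0 higher and 1 lower at p under 0.05 before adjustment in each), and of the trophoblast or embryo markers 1 exceeded the brightest Bacillus control. That control was also exceeded by 4 of the 16 antigen presentation and interferon genes and 4 of the 17 leukocyte markers. It was exceeded by 4 of the 11 epithelial, 3 of the 8 smooth muscle and 3 of the 8 endothelial markers. The others lay in the range of these controls, where a missing call says little. No probe set had a value of 0, since RMA gives none. The summed signals are carried by the brightest probe sets of each list, among them Col3a1 (mean 10.6) in the stroma and Tagln and Actg2 in smooth muscle. The part of the makeup of the tissue in the proteasome values was not tested.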

How the data were processed

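The deposited table held 1 log2 value per probe set and array for 6 arrays, which the authors produced with RMA and Partek 6.6, per the submitters' processing notes. The order of steps and the log base are not given in the sources used here, so base 2 is inferred from the values' range and RMA's habit. RMA removes differences shared by all probe sets of an array.

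After removal of 64 controls from the 22690 probe sets, all other 22626 entered the fit, dim ones included. The platform annotation gave 1 symbol to 20380 probe sets, several to 691 and none to 1555, and names were taken where there was 1. R 4.3.3 with limma 3.58.1 (lmFit, eBayes, group as the only term, two-sided) gave all differences, SE, 95% intervals and adjusted p-values (Benjamini-Hochberg over all probe sets). The fit was tested on simulated data.

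All members were accounted for, with every array's value for each called member, for Psmb5 to Psmb10, the Psme, Psmf and Psmg genes and the highest and lowest member of each subcomplex. Called genes of the other lists were all named, and other genes of these lists were picked to illustrate them. The members and lists were chosen with earlier results of these data known. Each p-value sets the group difference against the spread between the 3 RNA sets of a group, without pairing of sets from the same animal. In limma that spread is drawn towards the spread over all probe sets. Protein and promoter sequences were not used here.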

Additional observations from a re-analysis of the deposited data

How the results depend on the processing

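Of 10 members called higher, Psma7, Psmb3, Psmc4 and Psmd1 were called in 14 of 15 alternatives, all but the control level as a covariate. The number called higher was 17 with scaling to the hybridisation controls, 0 in limma with the controls as a covariate (0 lower as well, with 12 and 2 at an unadjusted p under 0.05), 6 by the rule of an unadjusted p and 1.5-fold, and 4 to 11 when 1 array was left out. The number called lower became 1 (Psme1) with array weights, without dim probe sets and at an adjusted p under 0.1, and ran from 0 to 1 when 1 array was left out (Psme1 without interimplantation array 1). The replicate number as a block gave 11 called higher, with Psma1 added (adjusted p = 0.0424). Deviations from the group means correlated at −0.090, 0.071 and −0.028 between same-numbered arrays of the groups and at −0.093 to 0.10 between differently numbered ones. The numbers were therefore not taken as pairs. These values do not settle which arrays share an animal, so the main fit leaves out any pairing within an animal. The median of the members was 0.62 with the scaling, 0.088 with the covariate and 0.12 to 0.26 when 1 array was left out. With the scaling the medians were 0.67 (alpha ring), 0.58 (standard beta ring), 0.31 (immunoproteasome), 0.65 (ATPases), 0.70 (Psmd genes), 0.43 (activators) and 0.35 (Psmg genes), where all genes had 0.38. With the covariate the medians were −0.083 (ATPases), 0.18 (Psmd genes), −0.13 (activators) and −0.12 (Psmg genes). Those of the alpha ring, the standard beta ring and the immunoproteasome with the covariate are not given here. Of the 48 members 30 were positive in that model. Without shared probe sets the standard beta ring was at 0.38 and the Psmd genes at 0.12, and with the mean of the probe sets the Psmd genes were at 0.19. Leaving out 1 array gave −0.15 to 0.010 for the immunoproteasome and 0.23 to 0.35 for the Psmd genes. The cause of these shifts was not tested. Leaving out an array also leaves fewer samples, and without shared or dim probe sets fewer are tested. All alternatives were chosen with earlier results of these data known. Trended and robust variance and repeated quantile normalization each left 10 called higher and 0 lower, and so did leaving out the members that are no subunit.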

Other observations

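With the genes split into 4 equal bins by mean level, the share of all genes called higher was 0.194%, 0.516%, 1.03% and 3.71% from the dimmest to the brightest. The members lay mostly in the upper bins, with 4, 3, 14 and 27 genes, of which 1, 0, 3 and 6 were called higher. In the brightest bin the median difference was 0.25 over the members and −0.021 over all genes. The level of a probe set also reflects mismatches between mouse probes and hamster RNA, so the bins are of signal and not of transcript number.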
